A study of Homo sapiens with 6 samples.

Results

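The transcripts of 37 genes that shorten, decap and degrade mRNA were followed through Ago2 precipitates from HEK293 cells, an established human embryonic kidney line. They were taken by gene name from a table of 48162 genes. Each of the 37 names stood on 1 row, and all 37 passed the filter on low counts that left 16233 genes for testing. By edgeR's quasi-likelihood test, 0 members passed an adjusted p of 0.05 between the mir-219 mimic and the negative control mimic, and 0% of all tested genes did. The unadjusted p was under 0.05 for 2 members, DDX6 with a higher mean in the mimic libraries and DCPS with a lower one, against 3.01% of all tested genes (1.74% higher and 1.26% lower). DESeq2 and limma-voom also called 0 members, and 5 and 0 of all tested genes. Each had 2 members at an unadjusted p under 0.05, against 433 (DESeq2) and 479 (limma-voom) of the 16233 genes.

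All cells had received Flag-tagged Ago2 together with a mimic. In the mimic group (3 libraries) it was that of mir-219, and in the control group (3 libraries) a negative control. Each group had 1 library from 22 August, 1 from 5 September and 1 from 18 September. Ago2 was pulled down by its tag on anti-flag agarose, and the RNA in the precipitate was sequenced. Input RNA was not used here, so more of a transcript in the cells and more of it on Ago2 cannot be told apart. Both groups thus carried transfected Ago2 beside their own, and the precipitate was of the transfected form. The labels do not say whether the dates were separate cultures, so p-values measure the spread between these libraries, which may be technical.

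Silencing by a microRNA depends on these enzymes. Ago2 binds a TNRC6 protein, which recruits the deadenylase complexes PAN2-PAN3 and CCR4-NOT to the target. The poly(A) tail is shortened, the cap is removed by DCP2 with the help of DDX6, PATL1, the EDC proteins and the LSM1-7 ring, and XRN1 degrades the body of the message from its 5' end. The data here are the mRNAs that encode these proteins, and say nothing of the amount or activity of the proteins.

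Which strand the transfected mimic carried is not in the labels. The gene in the study's title, MIR219A2, lies on the minus strand at chr9:128392618-128392714 of GRCh38.p14 (RefSeq), and its hairpin is shown with both mature strands in capitals because either could have been the transfected RNA.
MIR219A2 hairpin: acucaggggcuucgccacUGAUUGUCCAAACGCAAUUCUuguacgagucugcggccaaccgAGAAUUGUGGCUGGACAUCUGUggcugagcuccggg
In the mature strands below, capitals mark the seed, bases 2 to 8, which pairs with targets.
hsa-miR-219a-5p: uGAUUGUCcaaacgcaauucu
hsa-miR-219a-2-3p: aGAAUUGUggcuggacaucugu
hsa-miR-219a-1-3p: aGAGUUGAgucuggacgucccg
The 5p strand is the same from both MIR219A genes. The 3p strand of MIR219A1 has a seed that differs from that of MIR219A2, so the mature strands shown have 3 different seeds. Sites for these seeds in the members' transcripts were not searched here.

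Levels are given as CPM, counts scaled to each library's total (by TMM for the 37 genes). Libraries held 20233819 to 34408699 counts. AGO2 itself took 10.6 to 18.0% of the counts and mitochondrially encoded genes 5.66 to 13.3%. The HEK293 markers NEFL, NEFM, LIN28B, KRT8, KRT18 and VIM were at 49.7 CPM or more in every library, and PAX2 was low, at 2.66 to 6.77. Markers of other cells summed to 70.6 to 99.9 CPM in 5 libraries, mostly COL1A1 and MBP, which stood at similar levels in all of them. The control library of 5 September had 754, of which haemoglobin beta (HBB, 23319 counts) made up most. HBB was not among the 16233 tested genes, so leaving it out gave the same fit and could not change a call. The plasma cell and intestinal markers IGHA1, JCHAIN and FABP1 were at 0 in the mimic library of 22 August and the control library of 5 September, and IGHA1 was at 5.26 to 16.3 CPM in the other 4. The part of IGHA1, JCHAIN and FABP1 in the results below was not tested.

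To set genes side by side, CPM was divided by the gene length in kilobases that the deposited table gives. On that scale 34 of 37 members stood above the median of all tested genes, which was 5.13. PABPC1, the main cytoplasmic poly(A)-binding protein, had the highest level, 179.6 ± 17.5 (mean ± SD, n = 6 libraries), at the 98.9th percentile of tested genes. LSM14A, a P-body protein that binds DDX6, followed with 80.2 ± 9.52, and PABPC4, the inducible poly(A)-binding protein, with 77.5 ± 5.79. The lowest were XRN1, the cytoplasmic 5'-to-3' exonuclease, at 2.5 ± 0.443, DCPS, the scavenger enzyme that hydrolyses the cap left after 3'-to-5' decay, at 3.54 ± 0.622, and LSM1, the subunit that sets the cytoplasmic LSM ring apart from the nuclear one, at 4.30 ± 0.284.

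The order was a gradual one. Of 36 pairs of neighbours in the order of levels per kilobase, 2 did not overlap over the 6 libraries: PABPC1 above LSM14A, and CNOT6L above LSM1. Within the LSM1-7 ring, which holds 1 copy of each subunit, LSM4 had 61.3 and LSM7 50.04 CPM per kilobase, whereas LSM1 had 4.30. LSM2, LSM3, LSM5 and LSM6 lay between, at 23.3, 18.9, 14.8 and 9.64. Of these subunits LSM1 alone is not part of the nuclear ring. Among the nucleases and decapping enzymes, PARN had 27.5 ± 4.48, DCP2 7.27 ± 0.948 and PAN2 8.61 ± 0.873 CPM per kilobase. PAN3, the adaptor of PAN2, had 6.80 ± 0.608. How the lengths were defined is not given in the sources used here, and where a listed length exceeds the expressed transcript the level per kilobase is too low.

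**Figure D1:**
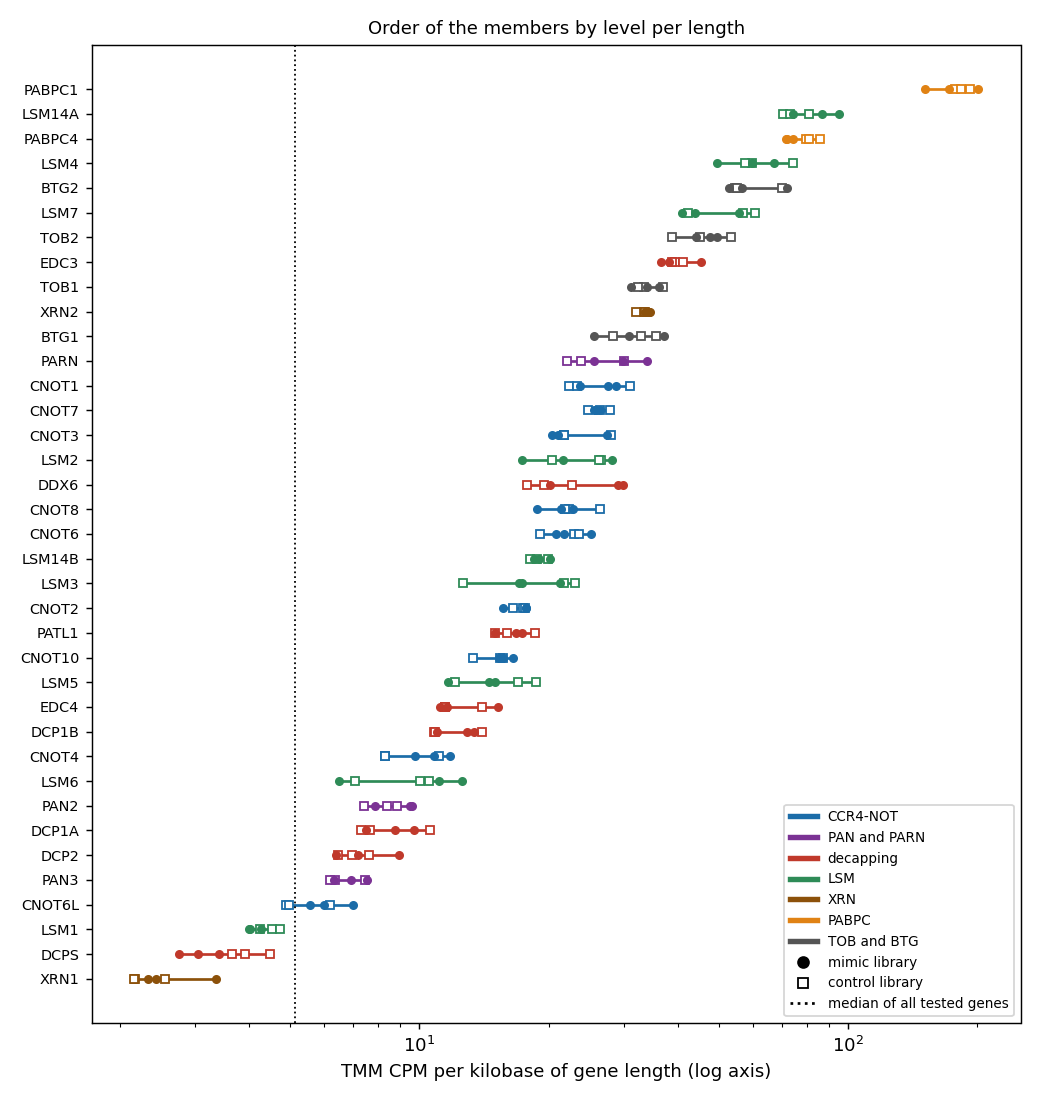
Level of each member per kilobase of gene length (x axis, CPM per kilobase, log axis), ordered from highest to lowest. Each point is 1 library (filled circles mimic, open squares control), lines span the 6 libraries, colours give the role group, and the dotted line is the median of all tested genes at 5.13; 34 of 37 members have means to its right.

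The coefficient of variation over the 6 libraries had a median of 13.1% among members and 15.8% among all tested genes. The highest library was less than 1.5 times the lowest for 28 of 37 members. XRN2, the nuclear 5'-to-3' exonuclease that acts at transcription termination, was the steadiest, with 116, 118 and 118 CPM by date in mimic precipitates, against 115, 115 and 110 CPM in controls. CNOT7, a catalytic deadenylase of CCR4-NOT, was nearly as steady (67.6, 69.7 and 68.2 CPM in mimic precipitates, 73.7, 65.5 and 69.7 CPM in controls). LSM6 varied most, with a coefficient of variation of 24.7%. The lowest count of any member in any library was 136, for LSM1, and the highest 20932, for PABPC1.

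Between the mimic and the control, the 95% interval of the log2 fold change lay inside a 1.5-fold change either way for 32 of 37 members, against 55.6% of all tested genes, and inside a 2-fold change for 37 of 37, against 84.4%. The median SE was 0.15 for members and 0.18 for all tested genes. Most members stood above the median level of tested genes, and the part of level in these shares was not tested. The median log2 fold change of members was 0.02, beside 0.00 for all tested genes. Of the members, 21 were above 0 and 16 below, beside 50.3% of all tested genes above 0. The sign was the same on all 3 dates for 14 members, or 37.8%, where 30% of all tested genes had it. Mimic and control libraries did not overlap for 3 members (DCPS, XRN2 and PABPC4), or 8.11%, against 8.06% of all tested genes. XRN2 alone was the higher with the mimic (background 4.22%), and DCPS and PABPC4 were the lower (3.84%). The share without overlap was near the background.

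**Figure D2:**
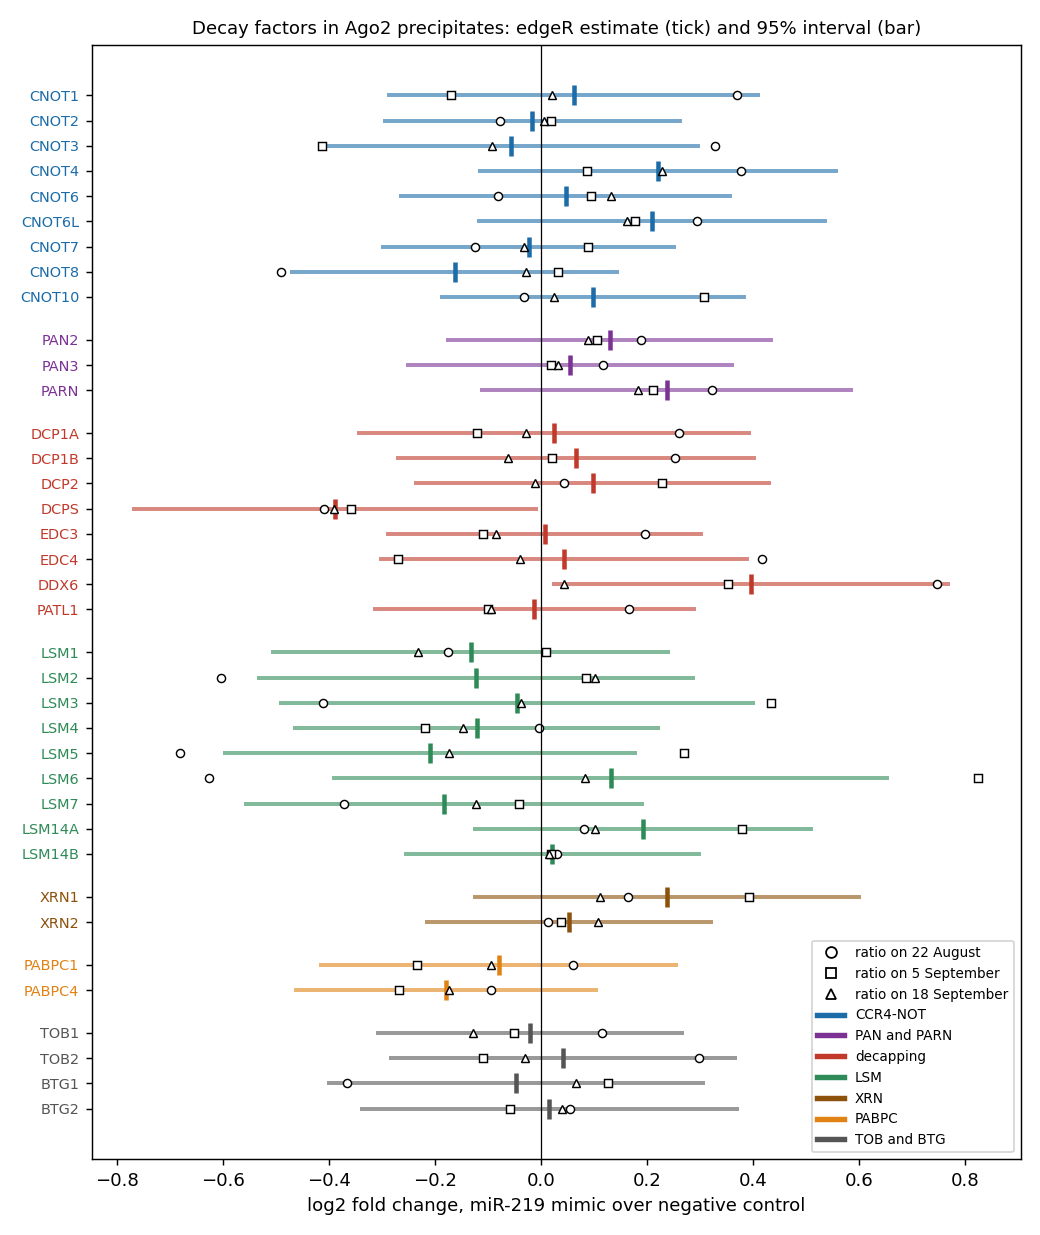
Log2 fold change of mimic over control (x axis) for each of the 37 members, grouped by role. Vertical ticks are the edgeR estimates and bars their 95% intervals, and open symbols are the log2 ratios on each date. The bars of DDX6 (0.02 to 0.77) and DCPS (-0.77 to -0.01) leave out 0, without adjustment for the number of genes.

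The decapping group held the members with the smallest p. DDX6 (ENSG00000110367, chr11:118620034-118661858 of hg19) is the DEAD-box helicase that links CCR4-NOT to decapping and to translational repression. It had 136, 132 and 91.5 CPM by date in mimic precipitates, against 80.8, 103 and 88.8 CPM in controls. The mimic library was far above its control on 22 August, less so on 5 September, and at nearly the same level on 18 September, and the groups overlapped. Means were 120 ± 24.4 and 90.9 ± 11.3 CPM (SD, n = 3 per group), and the log2 fold change was 0.40 (SE 0.17, edgeR adjusted p = 0.999, unadjusted p = 0.0384). Log2 ratios by date were 0.75, 0.35 and 0.04. Without both libraries of 22 August the log2 fold change of DDX6 was 0.22, and with the trend in gene length removed 0.35.

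DCPS (ENSG00000110063, chr11:126173647-126215644) had 6.77, 7.51 and 8.42 CPM in mimic precipitates, against 9.01, 9.64 and 11.1 CPM in controls. Every mimic library was below every control library, and the 3 dates gave much the same ratio (-0.41, -0.36 and -0.39 on the log2 scale). The log2 fold change was -0.39 (SE 0.17, edgeR adjusted p = 0.999, unadjusted p = 0.0449), and its p ranked at 426 among all tested genes. With the date as a block the unadjusted p of DCPS was 0.0196 and the adjusted p 0.824, and 3 members (DDX6, DCPS and PARN) had an unadjusted p under 0.05, against 5.75% of all tested genes. The transcript was scarce, at 182 to 326 counts per library. A gene on the other strand, RP11-712L6.5, overlaps its start and had 14 to 39 counts, and the strand setting of the counting is not given in the sources used here. Genes on the other strand overlap 20 of the members, and for 7 of them (DCPS, CNOT1, CNOT3, CNOT7, EDC3, LSM1 and LSM3) such a gene had more than 10% of the member's own mean count, so that reads of the 2 genes may not be told apart.

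The remaining decapping members lay close to 0 on the log2 scale of mimic over control. DCP2, the decapping enzyme, had 64.3, 80.1 and 57.3 CPM in mimic precipitates, against 62.4, 68.4 and 57.7 CPM in controls (log2 fold change 0.10, SE 0.15). DCP1B, an activator of DCP2, had 26.9, 22.9 and 27.9 CPM against 22.5, 22.6 and 29.2 CPM (0.07, SE 0.15). Its relative DCP1A had 52.6, 58.4 and 44.9 CPM against 43.9, 63.5 and 45.9 CPM (0.02, SE 0.17). In these 3 genes the groups overlapped. Log2 fold changes were 0.04 for the scaffold EDC4, 0.01 for the enhancer of decapping EDC3 and -0.01 for PATL1, which bridges the LSM ring to DCP2. EDC4 had 80.5 CPM in the mimic library of 22 August against 58.8 to 73.7 CPM in the other 5 libraries. On 22 August 7 of 8 decapping members had a ratio above 0, on 5 September 3 and on 18 September 1. The group's median log2 ratio was 0.22, -0.10 and -0.05 on the 3 dates, and the median log2 fold change was 0.03. This median was -0.09 without both libraries of 22 August and -0.04 with the trend in gene length removed, so its sign rests on these choices.

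**Figure D3:**
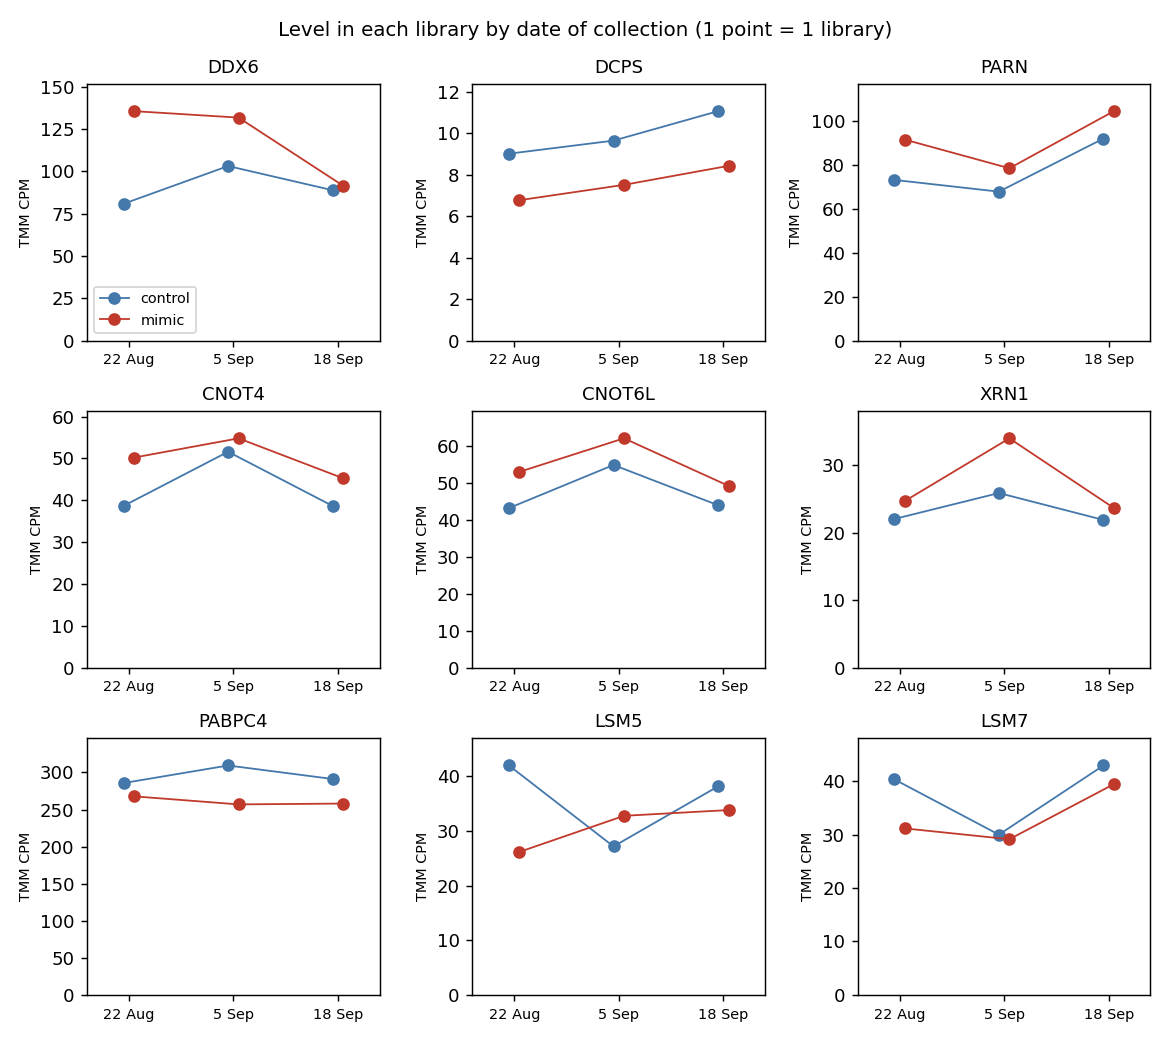
CPM (y axis, from 0) in each library by date of collection (x axis) for 9 members: red mimic, blue control, each point 1 library. DCPS and PABPC4 are lower in every mimic library than in every control library, DDX6 differs most on 22 August, and LSM5 changes sides between dates.

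The deadenylases came next. CCR4-NOT is the main cytoplasmic deadenylase, built on the scaffold CNOT1. CNOT1 (8471 bases) had 244, 233 and 201 CPM in the mimic libraries and 189, 262 and 198 CPM in the controls, which overlapped (log2 fold change 0.06, SE 0.16). The median of the 9 CCR4-NOT members was 0.05, with 5 above 0 and 4 below and 0 at an unadjusted p under 0.05. Members of 1 complex had different signs on the same date: on 22 August CNOT4, CNOT1 and CNOT3 had log2 ratios of 0.38, 0.37 and 0.33, and CNOT8 had -0.49.

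CNOT4, an E3 ubiquitin ligase linked to the complex, had 50.2, 54.8 and 45.3 CPM in mimic precipitates, against 38.7, 51.6 and 38.6 CPM in controls. Its mimic library was the higher on every date, but 5 September stood high in both groups, so the groups overlapped (log2 fold change 0.22, SE 0.15, edgeR unadjusted p = 0.178). CNOT6L, a catalytic deadenylase, followed the same course, with 52.9, 62.0 and 49.2 CPM against 43.1, 54.8 and 43.9 CPM (log2 fold change 0.21, SE 0.15). CNOT8, the partner of CNOT7 as an alternative catalytic subunit, had a log2 fold change of -0.16 (SE 0.14), with 50.9 CPM against 71.5 CPM on 22 August and 61.7 and 58.0 CPM against 60.3 and 59.2 CPM on the later dates. CNOT10, a subunit that binds the amino-terminal part of CNOT1, had 43.1, 46.5 and 44.0 CPM against 44.1, 37.5 and 43.3 CPM (0.10, SE 0.13), where the control of 5 September was the lowest. CNOT6, the deadenylase related to CNOT6L, had 137, 158 and 132 CPM against 145, 148 and 120 CPM (0.05, SE 0.14). CNOT2 and CNOT3, which form the NOT module with CNOT1, had -0.02 and -0.06, and CNOT3 stood at 0.33 on 22 August and at -0.41 on 5 September.

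PAN2, PAN3 and PARN had log2 ratios above 0 on every date, which 15.6% of all tested genes had. PARN (ENSG00000140694, chr16:14529558-14726585) is a poly(A)-specific ribonuclease that also trims small RNAs. It had 91.7, 78.6 and 105 CPM in mimic precipitates, against 73.3, 68.0 and 92.2 CPM in controls. The mimic library was the higher on every date, both groups were highest on 18 September, and the groups overlapped. Its log2 fold change was 0.24 (SE 0.16, edgeR adjusted p = 0.999, unadjusted p = 0.164). With the date as a block the unadjusted p of PARN was 0.0456 and the adjusted p 0.824. PAN2, the nuclease that starts tail shortening, had 51.5, 51.2 and 42.4 CPM in mimic precipitates, against 45.2, 47.6 and 39.9 CPM in controls (log2 fold change 0.13, SE 0.14). PAN3, its adaptor to poly(A)-binding protein, had 34.2 ± 3.08 and 32.9 ± 3.43 CPM (0.05, SE 0.14).

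The LSM1-7 ring binds the shortened tail and activates decapping. Among its 7 subunits 1 was above 0 and 6 below, 0 had an unadjusted p under 0.05, and the median of their log2 fold changes was -0.12. On 22 August 7 of 7 had a ratio below 0, where 48% of all tested genes did, and the median log2 ratio was -0.41. With the trend in gene length described below removed, 5 of 7 were below 0 on that date, and LSM1 (0.0015) and LSM4 (0.13) were above. On 5 September 2 of 7 were below 0 (background 49.9%) and on 18 September 5 of 7 (52.5%), with medians of 0.09 and -0.12. Without both libraries of 22 August the ring's median log2 fold change was 0.03. LSM5 had 26.2, 32.8 and 33.8 CPM in mimic precipitates, against 42.0, 27.2 and 38.2 CPM in controls. The control library of 22 August was the highest of the 6 for LSM5 and the mimic library of that date the lowest. LSM6 had the widest spread of ratios between dates, with 8.77 CPM against 13.6 on 22 August, 17.0 against 9.58 on 5 September and 15.04 against 14.2 on 18 September. Its log2 fold change was 0.13 (SE 0.24).

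Among the other subunits of the ring, LSM2, LSM3 and LSM7 had log2 ratios of -0.60, -0.41 and -0.37 on 22 August. LSM3 was at 0.43 on 5 September, when its control library had 48.3 CPM against 65.3 to 87.8 CPM elsewhere. LSM7 had 31.2, 29.2 and 39.5 CPM in mimic precipitates, against 40.4, 30.0 and 43.0 CPM in controls (log2 fold change -0.18, SE 0.17). LSM4, with 114, 94.2 and 128 CPM against 114, 110 and 142 CPM, was level on 22 August (log2 fold change -0.12, SE 0.16). LSM1 had 6.28, 6.70 and 6.29 CPM against 7.11, 6.65 and 7.41 CPM (log2 fold change -0.13, SE 0.17).

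Gene length moved with these values. In the shortest quartile of tested genes (up to 2016 bases), the median log2 ratio of mimic over control was -0.22 on 22 August, and 66.8% of genes were below 0; in the longest quartile (4729 bases or more) the median was 0.25. On 5 September these medians were 0.06 and -0.01, and on 18 September -0.08 and 0.03. Ring subunits had a median length of 1568 bases, and CCR4-NOT members of 4642 bases. After the trend in length was removed from each library, the ring's median on 22 August was -0.42, and -0.04 and -0.10 on the later dates. Single subunits moved although the median on 22 August hardly did. LSM2 went from -0.60 to -0.43, LSM5 from -0.68 to -0.58, LSM6 from -0.63 to -0.42 and LSM7 from -0.37 to -0.21. LSM1 went from -0.18 to 0.0015 and LSM4 from -0.0029 to 0.13. LSM3 went the other way, from -0.41 to -0.48. The median of the decapping group went to 0.11, -0.09 and -0.08. That of PAN2, PAN3 and PARN went to -0.0031, 0.13 and 0.05, with PAN2 and PAN3 below 0 on 22 August and PAN3 also on 18 September. That of the XRN genes went to -0.13, 0.23 and 0.07. The median of CCR4-NOT over all dates was -0.05 with the trend removed, and that of all members -0.02, beside -0.02 for all tested genes. RNA quality was not measured in the sources used here.

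**Figure D4:**
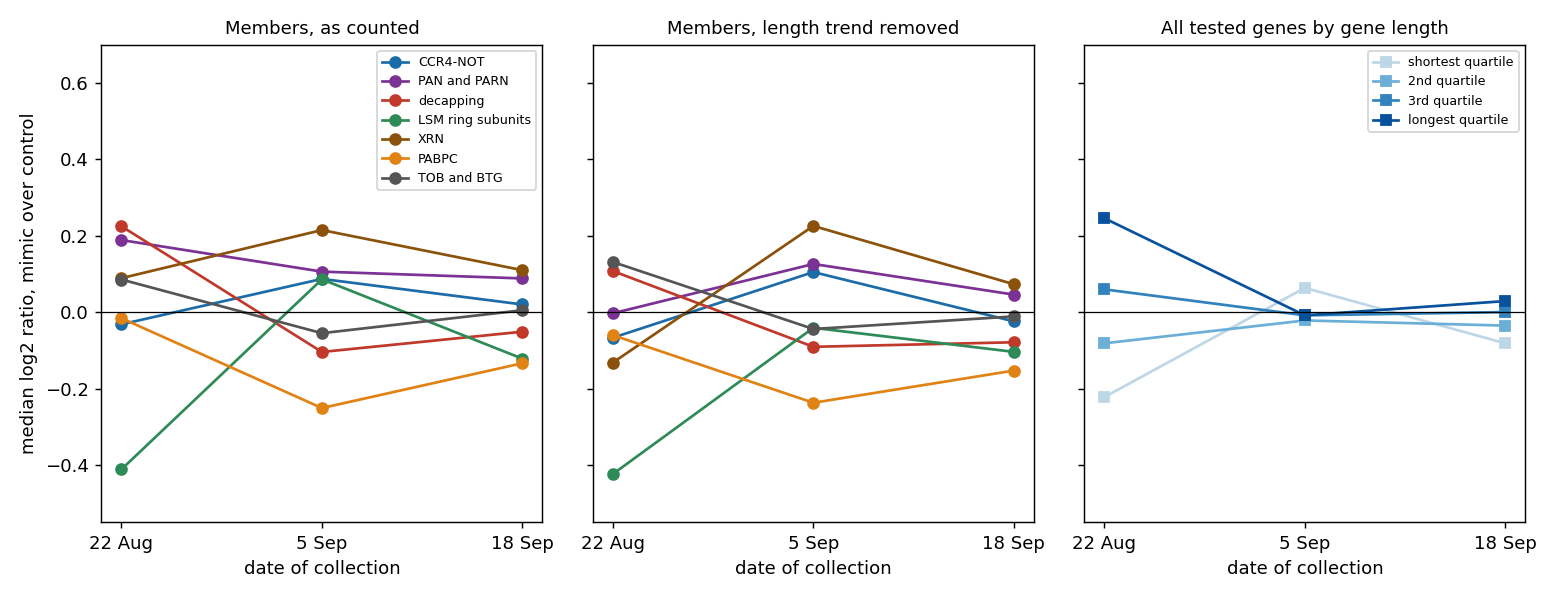
Median log2 ratio of mimic over control (y axis) on each date (x axis) for the role groups as counted (left), for the same groups after the trend in gene length was removed per library (middle), and for all tested genes in quartiles of gene length (right). The LSM ring is at -0.41 on 22 August as counted (7 of 7 subunits below 0) and at -0.42 with the trend removed (5 of 7 below 0), while the shortest quartile of all genes is at -0.22. The ring's medians hide moves of single subunits on that date, such as LSM1 from -0.18 to 0.0015 and LSM3 from -0.41 to -0.48.

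LSM14A and LSM14B, translational repressors of P-bodies that are not part of the ring, had log2 fold changes above 0. LSM14A had 272, 348 and 317 CPM in mimic precipitates, against 257, 268 and 295 CPM in controls. All dates had a ratio above 0 for LSM14A, though the groups overlapped (log2 fold change 0.19, SE 0.15). LSM14B had 48.0, 49.4 and 52.4 CPM against 47.0, 48.8 and 51.8 CPM, with log2 ratios of 0.03, 0.02 and 0.02 on the 3 dates.

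The exonucleases had ratios above 0 on every date as counted. With the length trend removed both were below 0 on 22 August, XRN1 at -0.24 and XRN2 at -0.02. XRN1 (ENSG00000114127, chr3:142025449-142166904) had 24.7, 33.98 and 23.7 CPM in mimic precipitates, against 22.0, 25.9 and 21.9 CPM in controls. The mimic library of 5 September stood above the other 5, and the log2 fold change was 0.24 (SE 0.17, edgeR unadjusted p = 0.178). XRN2 did not overlap between the groups, but the difference was small, at 117 ± 1.49 against 113 ± 2.94 CPM (log2 fold change 0.05, 95% interval -0.22 to 0.32).

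The poly(A)-binding proteins, which cover the tail and bind both PAN3 and the TOB proteins, had log2 fold changes below 0. PABPC4 (ENSG00000090621, chr1:40026488-40042462) had 268, 257 and 258 CPM in mimic precipitates, against 286, 309 and 291 CPM in controls. Every mimic library was below every control library (log2 fold change -0.18, SE 0.13, edgeR adjusted p = 0.999, unadjusted p = 0.192). PABPC1 had 701, 526 and 598 CPM against 672, 619 and 638 CPM, and these overlapped (log2 fold change -0.08, SE 0.15). Reads shared with copies of PABPC1 elsewhere in the genome may have been lost or assigned to them, so its level is uncertain.

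TOB and BTG proteins bring CCR4-NOT to mRNA, and their own mRNAs are short-lived. None had the same sign on all dates. TOB2 had 217, 225 and 201 CPM in mimic precipitates, against 177, 243 and 205 CPM in controls (log2 fold change 0.04, SE 0.15). TOB1 had 80.8, 69.6 and 75.5 CPM against 74.6, 72.1 and 82.5 CPM (-0.02, SE 0.13). In both TOB genes the groups overlapped. BTG1 had 62.4, 75.5 and 91.0 CPM in mimic precipitates, against 80.4, 69.2 and 87.0 CPM in controls (-0.05, SE 0.16). BTG2, a gene induced by p53, had 153, 143 and 196 CPM against 147, 149 and 190 CPM, nearly the same in the mimic and the control library of each date (0.02, SE 0.16).

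Dates were compared in a fit with date and mimic as terms. By edgeR 0 of 37 members differed between dates at an adjusted p under 0.05, against 0.308% of all tested genes. At an unadjusted p under 0.05 there were 5 members (BTG2, PARN, LSM7, LSM4 and DCP1A), or 13.5%, against 13.2%. The smallest adjusted p was that of BTG2 (0.339), which on 18 September was above the mean of the other dates by a log2 value of 0.38 (SE 0.10). On the same scale PARN (0.34), LSM7 (0.34) and LSM4 (0.32) were also above 0 on 18 September, and DCP1A was above 0 on 5 September (0.38). DESeq2 and limma-voom called 0 members between dates, against 1.02% and 0.253% of all tested genes. They had 3 and 5 members at an unadjusted p under 0.05, for which the share of all genes was not counted.

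Role groups deviated differently between libraries. The median deviation of the LSM ring from its own mean over libraries was -0.17, -0.09 and 0.17 by date in mimic precipitates and 0.20, -0.23 and 0.21 in controls, on the log2 scale. The shortest quartile of all genes deviated the same way in each library, by -0.10, -0.03 and 0.06 and by 0.12, -0.10 and 0.14. The median deviation of PAN2, PAN3 and PARN was 0.13, 0.15 and -0.10 in mimic precipitates and -0.09, 0.05 and -0.13 in controls. This median had the sign of the longest quartile in each library (0.12, 0.10 and -0.08, and -0.12, 0.11 and -0.12). PARN itself, of 3078 bases, had 91.7, 78.6 and 105 CPM in mimic precipitates and 73.3, 68.0 and 92.2 CPM in controls. It falls in the length quartile of 2017 to 3148 bases. That quartile deviated by -0.04, -0.06 and 0.05 by date in mimic precipitates and by 0.05, -0.04 and 0.08 in controls. Within each group, PARN and its quartile were lowest on the middle date and highest on the last. On every date PARN was the higher in the mimic library, and its quartile in the control library. The longest quartile had negative deviations on the last date. The part of gene length in these deviations was not tested.

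Several members come as pairs of related genes, and a ratio within a library does not depend on how that library is scaled. A trend in gene length does not cancel where the 2 genes differ in length, and the ratios were not computed with it removed. XRN1 (10143 bases) and XRN2 (3435 bases) had log2 ratios of mimic over control of 0.16 and 0.01 on 22 August. With the trend removed these were -0.24 and -0.02. For CNOT6 and CNOT6L the values were -0.08 and 0.29 as counted, and -0.33 and -0.07 with it removed. Per length, CNOT6 was 3.87 times CNOT6L, LSM14A 4.18 times LSM14B and PABPC1 2.31 times PABPC4, from the mean log2 ratio over the 6 libraries. XRN2 was 13.6 times XRN1. BTG2 was 1.90 times BTG1, DCP1B 1.42 times DCP1A, TOB2 1.36 times TOB1 and CNOT7 1.18 times CNOT8. In every pair the same gene was the higher in all 6 libraries.

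The 8 ratios were compared between mimic and control by an exact two-sided permutation test over libraries, which cannot give a p under 0.1 with 3 against 3 and so could call none. The ratio of CNOT6 to CNOT6L reached that smallest p (p = 0.1, exact permutation test; adjusted over the 8 pairs 0.8). Its log2 values were 1.86, 1.84 and 1.91 in mimic precipitates, against 2.23, 1.93 and 1.94 in controls, a difference of -0.16 that was -0.38 on 22 August, -0.08 on 5 September and -0.03 on 18 September. The ratio of LSM14A to LSM14B had a difference of 0.17 (exact permutation p = 0.2), that of XRN1 to XRN2 0.17 (exact permutation p = 0.5) and that of CNOT7 to CNOT8 0.14 (exact permutation p = 0.3). Single dates decided the size of these differences. Without 22 August that of CNOT6 to CNOT6L was -0.057 and that of CNOT7 to CNOT8 0.027, and without 5 September that of LSM14A to LSM14B was 0.069 and that of XRN1 to XRN2 0.077.

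**Figure D5:**
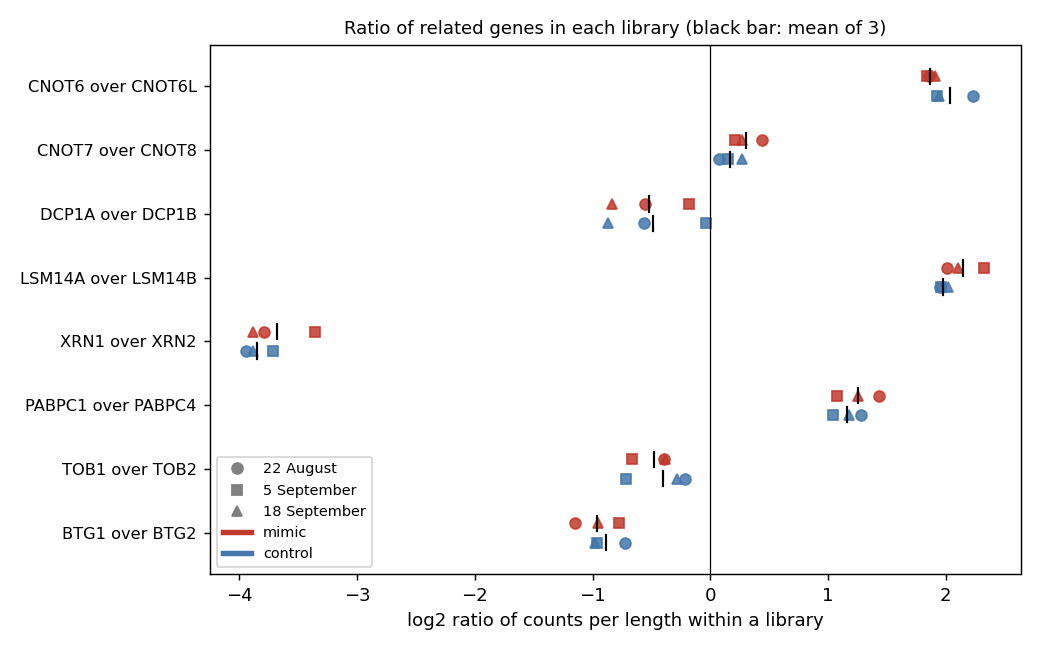
Log2 ratio of counts per length between related genes within a library (x axis) for 8 pairs. Red is mimic and blue control, symbols give the date, and black bars are means of 3 libraries. The ratio of XRN1 to XRN2 has a mean of -3.76 and that of LSM14A to LSM14B of 2.06 over the 6 libraries.

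Other genes of mRNA decay stood near the members. Of 20 genes of the exosome and its Ski cofactors, which degrade RNA from the 3' end, 6 were above 0 and 14 below, with a median log2 fold change of -0.09. Their median log2 ratios by date were -0.27, 0.02 and -0.07. Of all tested genes 50.3% were above 0. The exosome subunit EXOSC4 had -0.26 (SE 0.17) and the Ski scaffold TTC37 0.19 (SE 0.15). Of 13 genes of nonsense-mediated decay 7 were above 0 and 6 below (median 0.01), with SMG8, an inhibitor of the SMG1 kinase, at -0.18 and SMG1 at 0.17. Of 30 other decay partners 26 were tested, 20 above 0 and 6 below (median 0.04), among them ANGEL2 at 0.18 and the RNA-binding protein RC3H2 at 0.20. Their median log2 ratios by date were 0.17, -0.05 and -0.001. In these lists 0 genes passed over all genes by edgeR, and 0 had an unadjusted p under 0.05. Median gene lengths were 3050 bases for the exosome list, 4559 for nonsense-mediated decay and 4314 for the other partners. That of all tested genes was 3148. The length trend was not removed for these lists, and the part of gene length in their counts was not tested.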

How the data were processed

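The authors deposited raw read counts per gene for 6 libraries. Reads were aligned to hg19 with STAR 2.5 and counted with HTSeq 0.6.1, per the submitters' processing notes, which also name DESeq2. Libraries were made with the NEBNext Ultra II RNA kit, per the labels' protocols. The deposited table also gives each gene's length in bases, which was used for levels per kilobase and for the length trend. Columns were matched to samples by their names.

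Genes were filtered with filterByExpr (minimum count 10, minimum total 15), scaled by TMM and tested by edgeR 4.0.16 (quasi-likelihood, R 4.3.3) with Benjamini-Hochberg adjustment over all 16233 genes at a threshold of 0.05. The group was the only term, and the collection date was a block in an alternative. Log2 ratios on single dates used a prior count of 2. The length trend was a loess curve of span 0.3 fitted to each library. Ratios between related genes were compared by exact two-sided permutation tests over libraries. DESeq2 1.42.0, limma-voom (limma 3.58.1), other scalings and filters, the length trend and leaving out libraries were alternatives, and the test was tested on simulated data. Figures used matplotlib 3.10.9. The biological coefficient of variation was 17.1%, which limits the changes that could be detected.

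The labels give each date to 1 mimic and 1 control library, which pairs them. Deviations from the group means correlated within dates by 0.047, 0.15 and 0.51 across genes, and between the mimic library of 22 August and the control of 5 September by 0.24, above 2 of these values. The pairing thus comes from the labels. No replicates were duplicates. Levels in every library are given for the 2 members of each role group with the smallest p (4 in CCR4-NOT, decapping and LSM) and for related pairs, and of each further list the 2 genes with the smallest p are named. The members and lists were chosen with earlier results of these data known. MicroRNA sequences are from RefSeq.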

Additional observations from a re-analysis of the deposited data

How the results depend on the processing

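In 21 alternatives of the mimic comparison and 7 of the date comparison, 0 members were called. The fit without HBB is among the 21 and could not differ from the main one. With the date as a replicate block 933 genes had an unadjusted p under 0.05, against 488 without it, 0 were called, and the smallest adjusted p of a member was 0.824; the block changed no call. Without a filter on counts 6 genes were called higher and 14 lower. DESeq2 called 2 higher and 3 lower, or 4 and 6 when its model held the replicate block; the cause was not tested. Between dates 50 genes were called, against 576 without the filter, 165 with DESeq2 and 32 with a minimum count of 50. Median log2 fold changes follow with the length trend removed and, second, with the replicate block as well. They were 0.057 and 0.057 for PAN2, PAN3 and PARN, and 0.061 and 0.058 for the XRN genes. In these settings the median of all tested genes was -0.022 and -0.023. The sign turned there for all members (-0.019 and -0.024), CCR4-NOT (-0.047 and -0.047), decapping (-0.035 and -0.038) and TOB and BTG (0.011 and 0.013). These members changed sign there: CNOT1 (-0.060, -0.059), CNOT6 (-0.047, -0.046), CNOT7 (0.0020, 0.0020), PAN3 (-0.00241, -0.00330), DCP1A (-0.055, -0.051), DCP2 (-0.047, -0.050), EDC3 (-0.019, -0.023), EDC4 (-0.0264, -0.0331), TOB1 (0.024, 0.022) and, without the block, TOB2 (-0.0021). EDC3 was -0.000265 with library totals and -0.00115 with DESeq2 and the block. Leaving out a library or a date turned the sign of 25 members, whose log2 fold changes ranged as follows: BTG1 -0.19 to 0.095, BTG2 -0.13 to 0.14, CNOT1 -0.0853 to 0.23, CNOT10 -0.00698 to 0.17, CNOT2 -0.0469 to 0.042, CNOT3 -0.26 to 0.13, CNOT6 -0.043 to 0.11, CNOT7 -0.0812 to 0.0297, CNOT8 -0.27 to 0.00387, DCP1A -0.0819 to 0.21, DCP1B -0.0232 to 0.20, DCP2 -0.0486 to 0.20, EDC3 -0.0967 to 0.0661, EDC4 -0.16 to 0.20, LSM14B -0.0156 to 0.0596, LSM2 -0.32 to 0.0977, LSM3 -0.27 to 0.16, LSM4 -0.23 to 4.22e-05, LSM5 -0.42 to 0.0325, LSM6 -0.23 to 0.44, PABPC1 -0.19 to 0.0148, PAN3 -0.0133 to 0.15, PATL1 -0.0962 to 0.0829, TOB1 -0.0902 to 0.0371 and TOB2 -0.0725 to 0.17. Over the same settings the median was 0.061 to 0.15 for PAN2, PAN3 and PARN, -0.077 to 0.048 for TOB and BTG, 0.051 to 0.20 for the XRN genes, -0.23 to 0.032 for the LSM ring and -0.089 to 0.11 for decapping. The difference in ratio, with the length trend left in, was -0.20 to 0.11 for BTG1 over BTG2 and -0.067 to 0.021 for DCP1A over DCP1B. It was -0.23 to -0.057 for CNOT6 over CNOT6L and 0.027 to 0.21 for CNOT7 over CNOT8. For LSM14A over LSM14B it was 0.069 to 0.22, and for XRN1 over XRN2 0.077 to 0.25. In all these settings DDX6 stayed between 0.22 and 0.55 and DCPS between -0.47 and -0.30. In 12 members no setting changed the sign. LSM1 and DCPS have the fewest counts, which limits their precision.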

Other observations

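Subunits of the same complexes that are outside the 37 genes were looked up after the values of the members had been seen. CNOT11, which docks with CNOT10 on CNOT1, averaged 95.8 ± 10.2 CPM in mimic precipitates, against 111 ± 8.60 CPM in controls (SD, n = 3 per group; log2 fold change -0.22, SE 0.14, edgeR unadjusted p = 0.140). CNOT9, listed under its older symbol RQCD1, had 121 ± 13.4 and 118 ± 10.1 CPM (0.04, SE 0.14). LSM8, which takes the place of LSM1 in the nuclear ring and is listed as NAA38, had 26.3 ± 3.85 and 24.3 ± 3.17 CPM (0.12, SE 0.16).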
